A study of Homo sapiens with 9 samples.

Results

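The ADAM, ADAMTS and MMP metalloproteases and the TIMP inhibitors were described on 9 whole-transcript arrays of 1 transgenic human embryonic stem cell line. Members were all probe sets annotated with a single gene symbol of the ADAM, ADAMTS, ADAMTSL (ADAMTS-like), MMP or TIMP series, which gave 72 of the 33297 probe sets. They stood for 69 of the 18417 genes tested, because ADAMTSL1, MMP16 and TIMP3 had 2 probe sets each. No member was dropped for a low signal. ADAM7, ADAMTS7, ADAMTS15, MMP23A and MMP23B had no probe set of their own and are not analysed here.

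ADAMs are membrane-anchored proteins, and those with an intact zinc site cut other membrane proteins so that their outer part is released, a step called shedding. ADAMTS enzymes and MMPs act mainly outside the cell on proteoglycans, collagens and basement membrane, several MMPs being anchored in the membrane themselves. TIMPs are small secreted inhibitors that block the active site of MMPs and of some ADAM and ADAMTS enzymes. In the embryo, cells that leave the epithelium at the primitive streak cross a basement membrane, which is why these enzymes are followed in models of that step.

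The cells were H9, an established line of human embryonic origin, with a TCF7L1 transgene under doxycycline control, which the control groups carried too. TCF7L1 belongs to the TCF/LEF factors, which bind DNA at Wnt-responsive genes, and it mostly acts as a repressor. The PS+Dox group had 3 arrays of cells in primitive streak (PS) differentiation medium for 48 h with 1 ug/ml doxycycline for 48 h. The PS group had 3 arrays of cells in the same medium for 48 h without doxycycline, and the untreated group had 3 arrays of cells kept in mTeSR1, a medium that holds cells pluripotent. No group here received doxycycline without PS medium or without the transgene, and the labels give neither the promoter of the transgene nor whether the line was 1 clone. TCF7L1 itself read 13100, 12433 and 2699 on the PS+Dox arrays, 1275, 1542 and 1611 on the PS arrays, and 3718, 3879 and 3572 on the untreated arrays. The third PS+Dox array was therefore below all untreated arrays, and TCF7L1 differed by 2.39 ± 0.47 (log2 ± SE) between PS+Dox and PS, or 3.14 without that array. Separate cultures are not stated for the replicates, and the p-values therefore cover the spread between these arrays only, part of which may be technical.

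Values are intensities per probe set as deposited, with array medians from 200.4 to 216.5. Intensities of different probe sets are not comparable, so levels are set against each other only within a gene. The exception is the summed intensity of marker lists, which the brightest probe sets lead. Differences are on the quantile-normalized log2(value + 16) scale, where a fold understates the change of dim genes. A gene is called higher or lower where the limma p-value, Benjamini-Hochberg adjusted over all 18417 genes, was under 0.05. In these bulk RNA samples, fewer cells of a kind and less RNA per cell cannot be told apart.

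Doxycycline in PS medium changed 21 of the 69 members against PS medium alone, 8 higher and 13 lower, where the same test called 17.3% of all genes (8.91% higher and 8.44% lower). The largest change was a rise of ADAMTS18, a secreted protease with few known substrates, by 11.2-fold. Next in size were MMP24, a membrane-type MMP of the nervous system, 2.38-fold higher, and ADAMTS5, the cartilage aggrecanase, 2.12-fold lower. Both gelatinases fell, and of the 6 membrane-type MMPs 3 rose and 3 fell. A change of at least 2-fold was called for 5 members (7.25%), 2 higher and 3 lower, against 3.33% of all genes (1.78% higher and 1.55% lower). On the normalized scale, arrays of both groups did not overlap for 31 members (44.9%), against 30.9% of all genes. The median difference over the members was -0.04, beside 0.002 over all genes, and the median absolute difference was 0.13, beside 0.12.

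PS medium alone changed 29 of the 69 members against untreated cells, 15 higher and 14 lower, where 29.8% of all genes were called (14.2% higher and 15.7% lower). The largest rises were those of ADAMTS9, a versican-cleaving protease, by 9.02-fold, and ADAM19, a membrane sheddase also called meltrin beta, by 5.84-fold. The largest falls were those of ADAMTS8, 4.70-fold, and of the membrane-type protease MMP16, 3.64-fold. A change of at least 2-fold was called for 10 members (14.5%), 7 higher and 3 lower, against 5.64% of all genes (3.02% higher and 2.62% lower), and arrays did not overlap for 38 members (55.1%), against 43.3% of all genes. The median absolute difference was 0.23, beside 0.15 over all genes.

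PS+Dox cells differed from untreated cells in 29 members, 14 higher and 15 lower, where 30.3% of all genes were called (15.3% higher and 14.9% lower). ADAMTS18 led the rises at 11.7-fold and ADAMTS8 the falls at 5.83-fold. A change of at least 2-fold was called for 10 members, 4 higher and 6 lower, against 5.2% of all genes (2.74% higher and 2.46% lower). Arrays did not overlap for 35 members (50.7%), against 45% of all genes. The comparison of PS+Dox with PS and that of PS with untreated cells share the PS arrays, so their values are given side by side and no relation between them is read. Over the 3 comparisons together, 38 members were called at least once and 31 in none. Of the 22 members whose group means were all below 100, only ADAM28 and ADAMTS6 were among the 38.

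**Figure D1:**
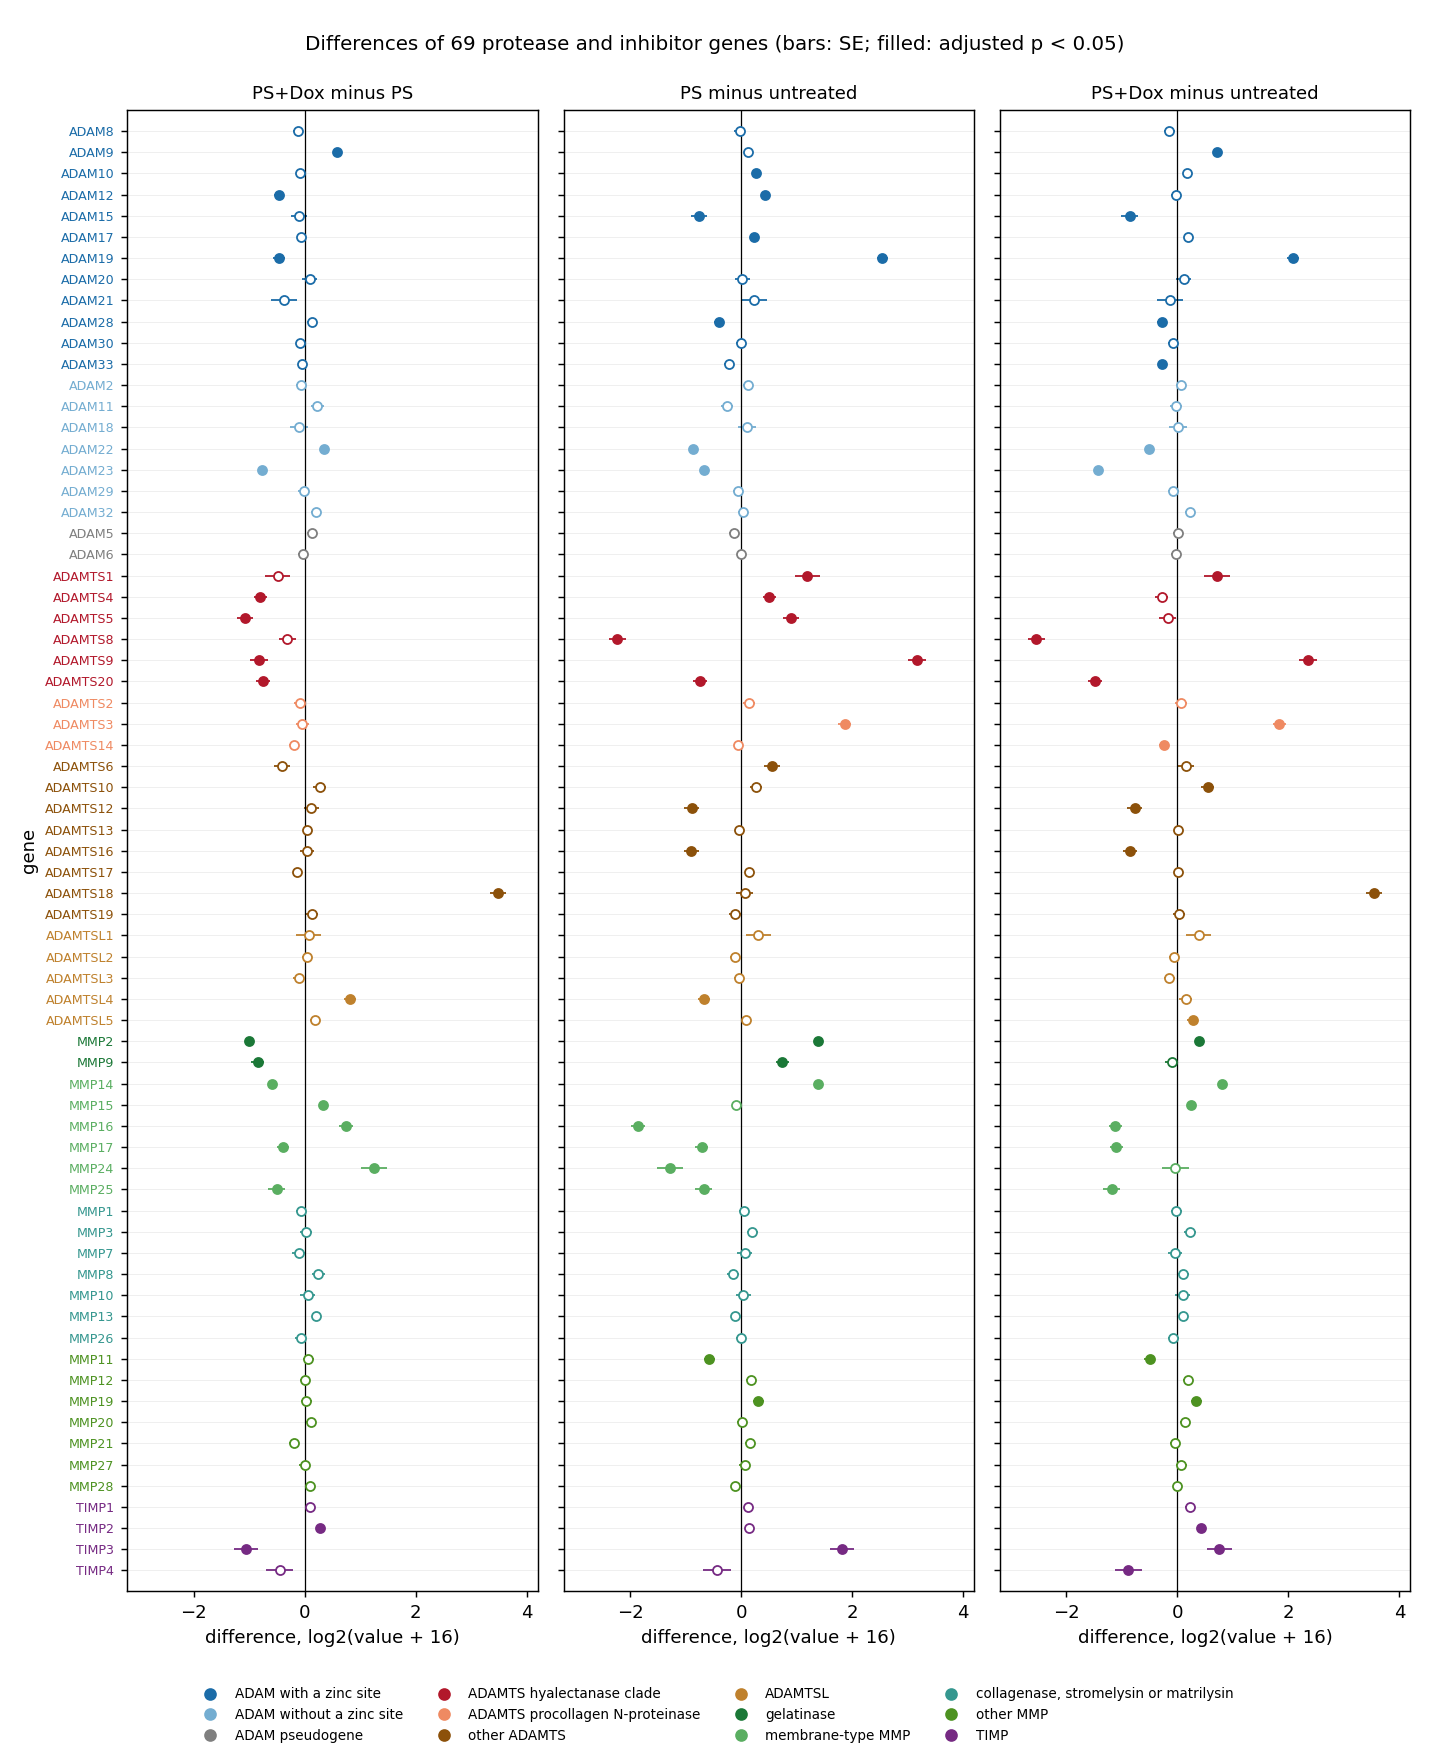
Differences of the 69 genes in log2(value + 16) for PS+Dox minus PS, PS minus untreated and PS+Dox minus untreated, with 1 row per gene and colours for the classes. Points are limma estimates, bars are standard errors and filled points passed an adjusted p of 0.05. ADAMTS18 stands at 3.48 in PS+Dox against PS, and ADAMTS9 at 3.17 in PS against untreated.

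Promoter sequence was available in RefSeq (GRCh38.p14) for 42 of the 69 members, as a window of 250 bases before to 50 bases after each gene start. The TCF form CTTTGAA was searched on both strands, and so were the form CTTTGAT, the form CTTTGTA and the form CTTTGTT. These 4 forms were present in 7 of the 42 members and in 13.9% of the 27305 promoters of the same length. Of the members with a promoter, 0 of 5 called higher in PS+Dox against PS, 1 of 6 called lower and 6 of 31 not called held a form. A match is only a match of letters, and its absence says nothing of TCF7L1 binding. The AP-1 letters TGAGTCA, with the other AP-1 form TGACTCA, were in 1 member, MMP7, and in 4.92% of all promoters.

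The 250 bases before the start are printed for the member that rose most, for the only member lower in PS+Dox that held a TCF form, and for MMP7, which held 2 forms and was not called. MMP7, or matrilysin, is known elsewhere as a Wnt target in intestinal tumours. Capitals mark TCF forms as read on the printed strand. ADAMTS18 lies at chr16:77435035-77435284 on the minus strand, ADAM23 at chr2:206443282-206443531 on the plus strand and MMP7 at chr11:102530748-102530997 on the minus strand.
ADAMTS18: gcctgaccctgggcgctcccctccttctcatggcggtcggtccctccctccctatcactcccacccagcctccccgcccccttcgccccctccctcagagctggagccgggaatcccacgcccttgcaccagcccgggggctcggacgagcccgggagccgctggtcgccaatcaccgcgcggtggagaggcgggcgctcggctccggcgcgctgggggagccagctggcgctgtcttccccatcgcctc
ADAM23: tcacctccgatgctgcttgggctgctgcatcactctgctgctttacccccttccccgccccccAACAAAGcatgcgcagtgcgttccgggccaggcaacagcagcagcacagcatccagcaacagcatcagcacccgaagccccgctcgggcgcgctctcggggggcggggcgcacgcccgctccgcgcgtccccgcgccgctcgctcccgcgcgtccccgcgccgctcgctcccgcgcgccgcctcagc
MMP7: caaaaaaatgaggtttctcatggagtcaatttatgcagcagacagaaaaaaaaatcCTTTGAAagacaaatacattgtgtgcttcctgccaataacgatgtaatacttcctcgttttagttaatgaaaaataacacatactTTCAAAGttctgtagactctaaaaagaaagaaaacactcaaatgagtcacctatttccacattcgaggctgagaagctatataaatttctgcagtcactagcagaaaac
The ADAMTS18 window held no TCF form. The ADAM23 window held AACAAAG with its first base at -187 from the start. The MMP7 window held CTTTGAA at -194 and TTCAAAG at -109, with an AP-1 match at -67 and TATAAA at -30.

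Among the ADAMTS proteases, ADAMTS18 read 1938, 1282 and 1734 on the PS+Dox arrays, against 128, 122 and 139 on the PS arrays and 121, 115 and 145 on the untreated arrays. All PS+Dox arrays stood far above the other 6, while the PS and untreated arrays overlapped. The difference was 3.48 ± 0.15 (adjusted p = 2.67e-07) between PS+Dox and PS and 0.06 ± 0.15 (adjusted p = 0.808) between PS and untreated cells. On the PS+Dox array with the lowest TCF7L1, ADAMTS18 was at 1734, and without that array the difference was 3.44. ADAMTS16, its closest paralog, averaged 119 ± 2.3 in PS+Dox, 118 ± 21.9 in PS and 236 ± 29.1 in untreated cells (intensity, SD, n = 3). ADAMTS16 fell by 0.90 ± 0.13 in PS against untreated cells (adjusted p = 0.000406), with a difference of 0.04 ± 0.13 between PS+Dox and PS (adjusted p = 0.892).

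The hyalectanase clade, which cleaves versican and aggrecan, comprised ADAMTS1, ADAMTS4, ADAMTS5, ADAMTS8, ADAMTS9 and ADAMTS20. Of these 6, none was called higher and 4 lower in PS+Dox against PS, beside 8.91% and 8.44% of all genes. At an unadjusted p under 0.05 in limma 0 were higher, and the median was -0.77 beside 0.002 over all genes. In PS against untreated cells, 4 were higher and 2 lower, beside 14.2% and 15.7% of all genes. ADAMTS5 read 108, 135 and 144 in PS+Dox, against 242, 282 and 366 in PS and 146, 163 and 149.5 in untreated cells. The PS arrays were above both other groups. As deposited, the highest PS+Dox value lay just below the lowest untreated one, and after normalization these 2 groups overlapped. ADAMTS5 fell by 1.08 ± 0.15 in PS+Dox against PS (adjusted p = 0.000508) and was 0.90 ± 0.15 higher in PS than in untreated cells (adjusted p = 0.000905). ADAMTS4, the other aggrecanase, read 181, 154 and 124 in PS+Dox, against 278, 253 and 299 in PS and 181, 199 and 201 in untreated cells. It fell by 0.80 ± 0.12 in PS+Dox against PS (adjusted p = 0.00102) and was 0.51 ± 0.12 higher in PS than in untreated cells (adjusted p = 0.00846).

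ADAMTS9 read 322, 341 and 519.7 in PS+Dox, against 671, 768 and 649 in PS and 60, 57.1 and 75.5 in untreated cells. The groups did not overlap, with PS highest and untreated lowest. ADAMTS9 was 3.17 ± 0.16 higher in PS than in untreated cells (adjusted p = 2.19e-07) and fell by 0.82 ± 0.16 in PS+Dox against PS (adjusted p = 0.00474). Because the untreated values were low, the rise depended on the log offset and was 2.58 with an offset of 64. ADAMTS20, a relative of ADAMTS9 known from pigment and palate development in mice, had the opposite order of untreated and PS values. It read 87.6, 55.8 and 64.7 in PS+Dox, against 149, 122 and 109.7 in PS and 227, 218 and 231 in untreated cells. The difference was -0.74 ± 0.12 between PS+Dox and PS (adjusted p = 0.00178) and -0.74 ± 0.12 between PS and untreated cells (adjusted p = 0.00109).

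ADAMTS8, a clade member known for an anti-angiogenic activity, read 95.5, 107 and 138 in PS+Dox, against 118, 145 and 178 in PS and 723, 791 and 697 in untreated cells. Both PS groups were far below untreated cells and overlapped each other. The difference was -2.23 ± 0.15 in PS against untreated cells (adjusted p = 1.77e-06) and -0.31 ± 0.15 in PS+Dox against PS (adjusted p = 0.215). ADAMTS1, the neighbour of ADAMTS5 on chromosome 21, read 402, 448 and 446 in PS+Dox, against 746, 615 and 501 in PS and 258, 382 and 179 in untreated cells. Its arrays did not overlap between any of the groups. It was 1.20 ± 0.23 higher in PS than in untreated cells (adjusted p = 0.0027), while the difference of -0.49 ± 0.23 between PS+Dox and PS did not pass (adjusted p = 0.202). Against untreated cells ADAMTS1 was 0.71 ± 0.23 higher in PS+Dox (adjusted p = 0.0414), or 0.44 (adjusted p = 0.136) without the third untreated array. That call was also lost without any 1 of the PS+Dox arrays, the second PS array or the first untreated array.

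ADAMTS3, a procollagen N-proteinase that also activates the lymphatic growth factor VEGF-C, averaged 539 ± 83.4 in PS+Dox, 549 ± 34.5 in PS and 141 ± 10.6 in untreated cells (SD, n = 3). Its rise in PS against untreated cells was 1.87 ± 0.12 (adjusted p = 9.63e-07), with a difference of -0.04 ± 0.12 between PS+Dox and PS (adjusted p = 0.879). Of the other N-proteinases, ADAMTS2 was not called in any comparison and ADAMTS14 was called only in PS+Dox against untreated cells, at -0.25 ± 0.08 (adjusted p = 0.0392). The ADAMTS14 call held in 11 of 19 alternatives and was lost when any 1 untreated array was left out (adjusted p of all alternatives up to 0.141). ADAMTS12, which cleaves a cartilage matrix protein, fell by 0.89 ± 0.14 in PS against untreated cells (adjusted p = 0.000582). ADAMTS6 was 0.56 ± 0.14 higher in PS than in untreated cells (adjusted p = 0.0116), from intensities of 80.5, 71.2 and 113 in PS and 49.9, 55.7 and 61.2 in untreated cells. That call was lost without the first untreated array (adjusted p = 0.0536), and with an offset of 64 the difference was 0.36. Between PS+Dox and PS it differed by -0.40 ± 0.14 (adjusted p = 0.0753), which passed with the replicate number as a block and without the second PS array (lowest adjusted p of all alternatives 0.0303). ADAMTS10, which acts on fibrillin microfibrils, was called only in PS+Dox against untreated cells, at 0.54 ± 0.11 (adjusted p = 0.00362).

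Among the 5 ADAMTS-like genes, which lack the protease domain, ADAMTSL4 was the 1 called in PS+Dox against PS, beside 17.3% of all genes. ADAMTSL4, a fibrillin-binding protein of the eye's lens suspension, read 167, 140.1 and 195 in PS+Dox, against 79.1, 84.6 and 101 in PS and 162, 149.6 and 149 in untreated cells. The PS arrays were below both other groups, which overlapped. It rose by 0.82 ± 0.11 in PS+Dox against PS (adjusted p = 0.000579) and fell by 0.67 ± 0.11 in PS against untreated cells (adjusted p = 0.00117).

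**Figure D2:**
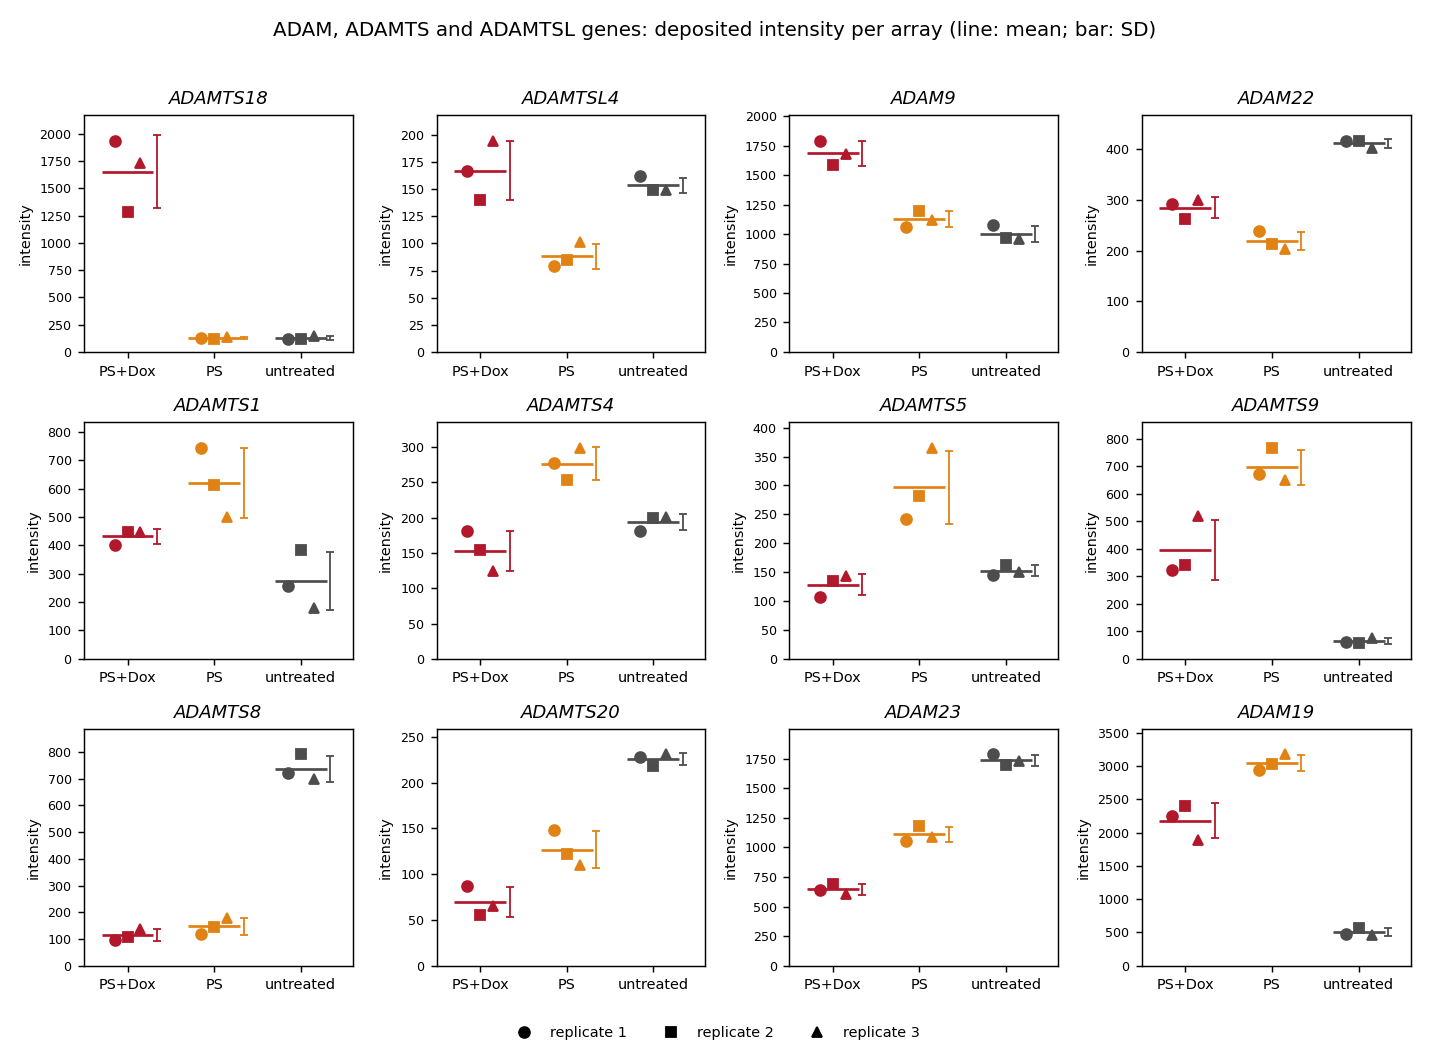
Deposited intensity per array, on axes starting at 0, of ADAM and ADAMTS genes in PS+Dox, PS and untreated cells, with a marker for each replicate number, a line at the group mean and a bar for the SD. The ADAMTS18 panel has its PS+Dox arrays at 1282 to 1938 and the other 6 arrays at or below 145.

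Both gelatinases, which degrade denatured collagen and basement membrane collagen, were lower in PS+Dox than in PS and higher in PS than in untreated cells. Of all genes, 8.44% were called lower in the first comparison and 14.2% higher in the second. MMP2 read 1698, 1798 and 1597 in PS+Dox, against 3390.4, 3224 and 3814 in PS and 1310.4, 1271 and 1252 in untreated cells. The 3 groups did not overlap, with PS highest. MMP2 fell by 1.01 ± 0.07 in PS+Dox against PS (adjusted p = 8.46e-06), was 1.39 ± 0.07 higher in PS than in untreated cells (adjusted p = 2.77e-07), and was 0.39 ± 0.07 higher in PS+Dox than in untreated cells (adjusted p = 0.00234). MMP9 read 187, 172 and 143 in PS+Dox, against 341, 283 and 314 in PS and 165, 196 and 194 in untreated cells. The PS arrays were above the other 6, and PS+Dox and untreated arrays overlapped. MMP9 fell by 0.84 ± 0.12 in PS+Dox against PS (adjusted p = 0.00057) and was 0.74 ± 0.12 higher in PS than in untreated cells (adjusted p = 0.000745).

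All 6 membrane-type MMPs were called in PS+Dox against PS, where 17.3% of all genes were called. MMP14, the main surface activator of pro-MMP2, read 1129, 1117 and 1157 in PS+Dox, against 1672, 1689 and 1779.7 in PS and 626, 690.4 and 569 in untreated cells. As with MMP2 the groups did not overlap and PS was highest. MMP14 fell by 0.58 ± 0.07 in PS+Dox against PS (adjusted p = 0.000327) and was 1.39 ± 0.07 higher in PS than in untreated cells (adjusted p = 3.26e-07).

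MMP16 and MMP24 were instead lowest in PS. MMP16 read 658, 498 and 533 in PS+Dox, against 352, 354 and 275 in PS and 1216, 1171 and 1249 in untreated cells, and no groups overlapped. It rose by 0.74 ± 0.12 in PS+Dox against PS (adjusted p = 0.00172) and differed by -1.86 ± 0.12 between PS and untreated cells (adjusted p = 1.4e-06). A second MMP16 probe set gave 0.73 ± 0.11 and -1.77 ± 0.11 for the same comparisons, both called. MMP24 read 368, 584 and 637 in PS+Dox, against 189.7, 294 and 151 in PS and 457, 567 and 536 in untreated cells. The PS arrays were below the other groups, which overlapped. MMP24 rose by 1.25 ± 0.24 in PS+Dox against PS (adjusted p = 0.00388) and differed by -1.29 ± 0.24 between PS and untreated cells (adjusted p = 0.00188), from replicates more spread than those of MMP16.

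MMP15, a relative of MMP14, read 707, 721 and 719.5 in PS+Dox, against 498, 587 and 602 in PS and 573, 586 and 596 in untreated cells. The PS+Dox arrays were above the rest, and the rise against PS was 0.33 ± 0.08 (adjusted p = 0.0115). MMP17 and MMP25, both held in the membrane by a lipid anchor, were highest in untreated cells. MMP25 read 217, 243 and 151 in PS+Dox, against 274, 334 and 268 in PS and 469, 472 and 472 in untreated cells. It differed by -0.51 ± 0.16 between PS+Dox and PS (adjusted p = 0.0479) and by -0.68 ± 0.16 between PS and untreated cells (adjusted p = 0.0074). Without the third PS+Dox array, the low TCF7L1 one, the first difference was -0.31 (adjusted p = 0.106). That call was lost when any 1 array other than the second PS+Dox array was left out. It was also lost with median centring, with only PS+Dox and PS fitted, and without the variance trend (adjusted p up to 0.148). MMP17 averaged 255 ± 30.9 in PS+Dox, 338 ± 32.5 in PS and 555 ± 42.6 in untreated cells (SD, n = 3). Its differences were -0.39 ± 0.11 (adjusted p = 0.0366) and -0.71 ± 0.11 (adjusted p = 0.000718). The first call was lost without the first or the third PS+Dox array or the first or the second PS array. It was also lost without the second or the third untreated array, and with only PS+Dox and PS fitted (adjusted p up to 0.131).

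**Figure D3:**
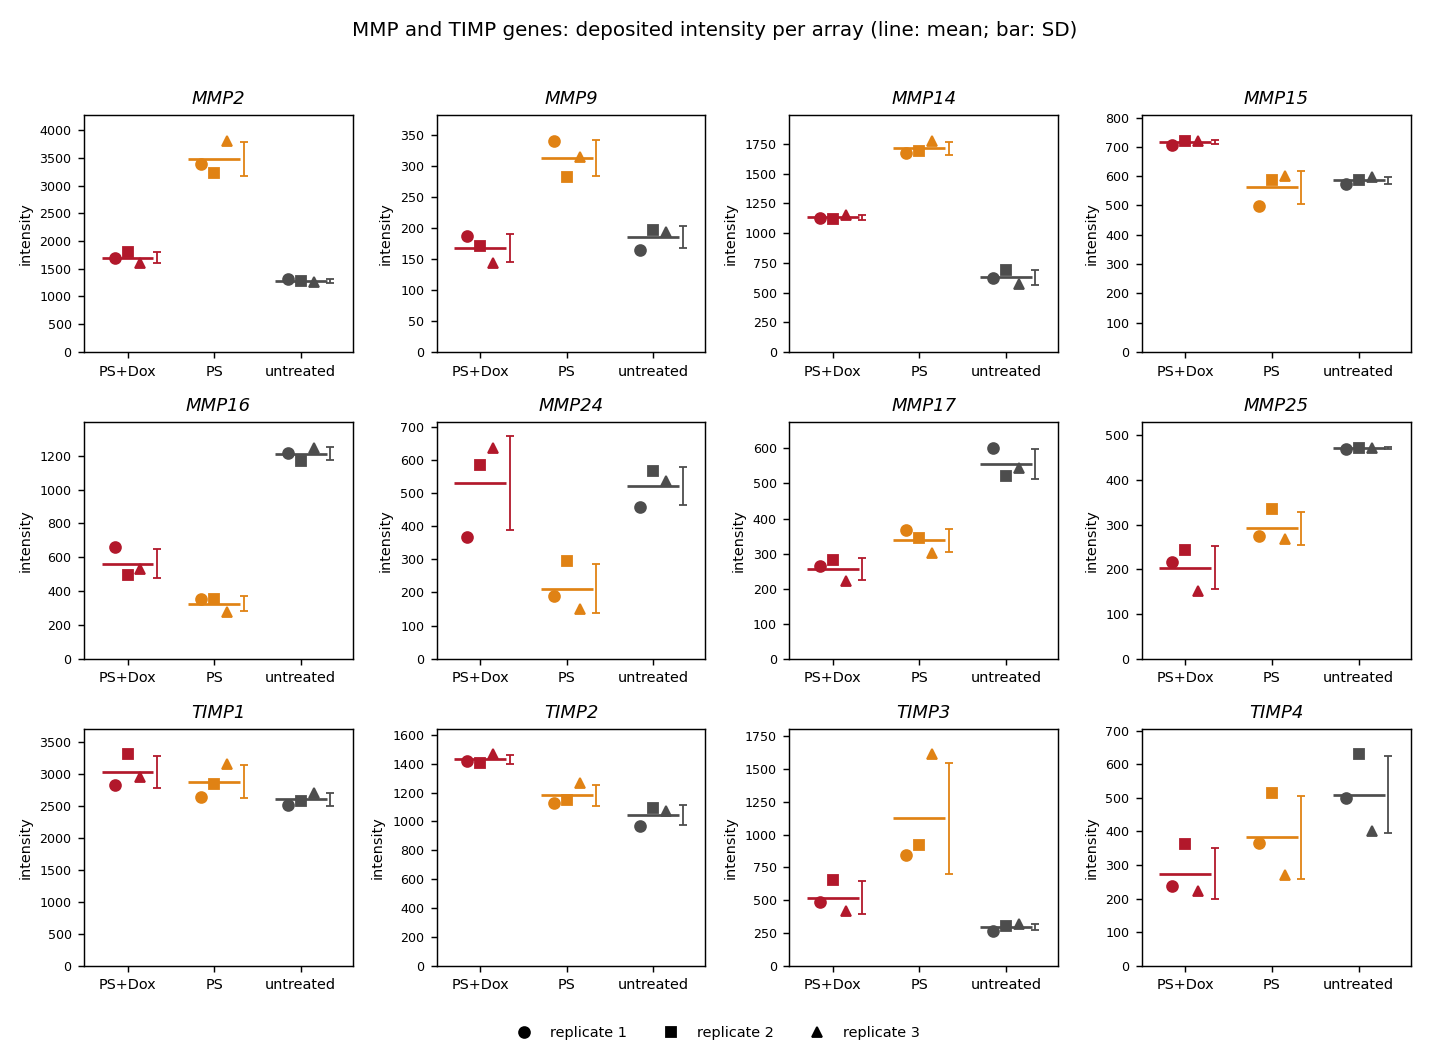
Deposited intensity per array, on axes starting at 0, of MMP and TIMP genes in PS+Dox, PS and untreated cells, with a marker for each replicate number, a line at the group mean and a bar for the SD. The PS arrays of MMP2, MMP9 and MMP14 stand above those of both other groups, and the PS arrays of MMP16 and MMP24 below them.

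The class of collagenases, stromelysins and matrilysins held MMP1, MMP8, MMP13, MMP3, MMP10, MMP7 and MMP26, without MMP11. These genes gave no call by limma in any comparison, where 17.3% to 30.3% of all genes were called. At an unadjusted p under 0.05, 1 was higher in PS+Dox against PS and 0 in the other 2 comparisons. These genes are mostly induced in inflammation and wound repair. By gene order in RefSeq, 9 MMP genes lie side by side on chromosome 11 (MMP7, MMP20, MMP27, MMP8, MMP10, MMP1, MMP3, MMP12 and MMP13), and all were dim. Their intensities ran between 13.3 and 89.8 in PS+Dox, between 10.2 and 87.6 in PS and between 14.0 and 86.2 in untreated cells. Their differences lay between -0.10 and 0.24 in PS+Dox against PS and between -0.15 and 0.21 in PS against untreated cells. At these signals, genes that did not change cannot be told from genes whose change was too small to detect.

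MMP11, a stromelysin found in embryonic and tumour stroma, was counted apart from those above. It read 442, 469 and 426 in PS+Dox, against 411, 377 and 497 in PS and 612, 599 and 676 in untreated cells. It differed by -0.57 ± 0.10 between PS and untreated cells (adjusted p = 0.00111) and by 0.06 ± 0.10 between PS+Dox and PS (adjusted p = 0.731). MMP19 was 0.31 ± 0.10 higher in PS than in untreated cells (adjusted p = 0.0373). That call was lost without the first PS+Dox array, the first or the second PS array, or the first or the third untreated array. It was also lost on the values as deposited and with only PS and untreated cells fitted (adjusted p up to 0.136).

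Among the ADAMs with a zinc site, 1 rose and 2 fell of 12 in PS+Dox against PS, beside 8.91% and 8.44% of all genes. ADAM9, a widely expressed sheddase, read 1795, 1584 and 1679 in PS+Dox, against 1063, 1194 and 1124 in PS and 1078, 971 and 958 in untreated cells. The PS+Dox arrays were above the other 6, and PS and untreated arrays overlapped. ADAM9 rose by 0.58 ± 0.08 in PS+Dox against PS (adjusted p = 0.000372). Its neighbours on chromosome 8, ADAM32, ADAM18 and ADAM2, were not called in any comparison.

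ADAM19, which acts in heart and nerve development in mice, read 2247, 2405 and 1884 in PS+Dox, against 2938, 3029 and 3172 in PS and 483, 573 and 456 in untreated cells. The groups did not overlap, with both PS groups several times above untreated cells. ADAM19 was 2.55 ± 0.10 higher in PS than in untreated cells (adjusted p = 4.39e-08) and fell by 0.47 ± 0.10 in PS+Dox against PS (adjusted p = 0.01). ADAM12, its close relative meltrin alpha, read 73.6, 72.3 and 86.7 in PS+Dox, against 117, 120.3 and 104 in PS and 80.7, 84.5 and 80.8 in untreated cells. It fell by 0.46 ± 0.09 in PS+Dox against PS (adjusted p = 0.00406) and was 0.44 ± 0.09 higher in PS than in untreated cells (adjusted p = 0.00326). ADAM15 was highest in untreated cells, with means of 333 ± 63.7 in PS+Dox, 354 ± 56.9 in PS and 598 ± 34.8 in untreated cells (SD, n = 3). It differed by -0.76 ± 0.15 between PS and untreated cells (adjusted p = 0.00276).

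ADAM10 and ADAM17 are the best known sheddases, of Notch and cadherins and of TNF and EGF-family ligands. ADAM10 read 3429, 3202 and 3528 in PS+Dox, against 3588, 3424 and 3881 in PS and 2851, 3066 and 3072 in untreated cells. Both PS groups were above untreated cells and overlapped each other. ADAM10 was 0.26 ± 0.06 higher in PS than in untreated cells (adjusted p = 0.00952), and the difference between PS+Dox and PS was -0.08 ± 0.06 (adjusted p = 0.465). ADAM17 read 988, 906 and 1004 in PS+Dox, against 954, 998 and 1068 in PS and 836, 819 and 825 in untreated cells. It was 0.24 ± 0.07 higher in PS than in untreated cells (adjusted p = 0.0253) and differed by -0.06 ± 0.07 between PS+Dox and PS (adjusted p = 0.669). The ADAM17 call was lost when the third PS array or any 1 untreated array was left out, with adjusted p-values up to 0.0872. In PS+Dox against untreated cells ADAM10 (0.18, adjusted p = 0.0532) and ADAM17 (0.18, adjusted p = 0.0753) did not pass, and both passed with the replicate number as a block (adjusted p = 0.0188 and 0.0325).

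Among the 7 ADAMs without a zinc site, ADAM22 and ADAM23 were the 2 called in PS+Dox against PS, beside 17.3% of all genes. Both are neuronal adhesion proteins that bind the secreted LGI proteins. ADAM23 read 638, 693 and 602 in PS+Dox, against 1057, 1183 and 1087 in PS and 1785, 1693 and 1729 in untreated cells. The groups were fully separate and lowest in PS+Dox. ADAM23 fell by 0.77 ± 0.07 in PS+Dox against PS (adjusted p = 3.57e-05) and differed by -0.67 ± 0.07 between PS and untreated cells (adjusted p = 4.42e-05). ADAM22 read 292, 262 and 300.0 in PS+Dox, against 238, 214 and 203 in PS and 417, 416 and 402 in untreated cells. It rose by 0.36 ± 0.08 in PS+Dox against PS (adjusted p = 0.00988) and differed by -0.86 ± 0.08 between PS and untreated cells (adjusted p = 1.59e-05). The testis genes of the family were dim, for example ADAM18 with 16.8, 39.8 and 26 in PS+Dox, 32.1, 29.8 and 27.4 in PS and 26.8, 25.1 and 30 in untreated cells.

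Of the 4 TIMPs, TIMP2 rose and TIMP3 fell in PS+Dox against PS, where 17.3% of all genes were called. TIMP2, which both inhibits MMP2 and helps MMP14 to activate it, read 1421, 1402 and 1464 in PS+Dox, against 1129.9, 1147 and 1264 in PS and 967, 1092 and 1075 in untreated cells. All 3 groups were separate, with PS+Dox highest. TIMP2 rose by 0.28 ± 0.07 in PS+Dox against PS (adjusted p = 0.0181) and by 0.42 ± 0.07 against untreated cells (adjusted p = 0.000985). The first call was lost without the first or the third PS+Dox array or the first or second PS array, with adjusted p-values up to 0.0684.

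TIMP3, which binds the matrix and also inhibits ADAM17 and the aggrecanases, read 488, 657 and 414 in PS+Dox, against 845, 917 and 1612 in PS and 269, 301 and 317 in untreated cells. The groups did not overlap, and the third PS array stood well above the other 2. TIMP3 fell by 1.06 ± 0.22 in PS+Dox against PS (adjusted p = 0.00664) and was 1.81 ± 0.22 higher in PS than in untreated cells (adjusted p = 0.000111). A second, dimmer TIMP3 probe set gave -0.66 ± 0.24 (adjusted p = 0.089) and 0.89 ± 0.24 (adjusted p = 0.0163), so the first change was called on 1 of the 2 probe sets. Against untreated cells TIMP3 was 0.76 ± 0.22 higher in PS+Dox (adjusted p = 0.0235), or 0.49 (adjusted p = 0.126) as the mean of its probe sets. That call was also lost without the first or the second PS+Dox array or the first or the second untreated array (adjusted p up to 0.0885).

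TIMP1, a broad MMP inhibitor, averaged 3029 ± 249 in PS+Dox, 2878 ± 256 in PS and 2602 ± 98.2 in untreated cells (SD, n = 3). It was not called in any comparison (0.10 ± 0.08 in PS+Dox against PS, adjusted p = 0.485), but passed in PS+Dox against untreated cells with the replicate number as a block (0.22, adjusted p = 0.0191, instead of 0.0565). TIMP4, an inhibitor first found in heart, read 238, 362 and 223 in PS+Dox, against 365, 513 and 269 in PS and 498, 629.5 and 401 in untreated cells. The second array was highest in each group, and neighbouring groups overlapped. The difference was -0.45 ± 0.25 between PS+Dox and PS (adjusted p = 0.274) and became a call with the replicate number as a block (-0.45 ± 0.09, adjusted p = 0.00451). In PS+Dox against untreated cells TIMP4 differed by -0.88 ± 0.25 (adjusted p = 0.0197), which did not pass without either the first or the third PS+Dox array or the first or second untreated array (adjusted p up to 0.0797).

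Genes that work with these enzymes were read from 5 lists, counted beside the 17.3% of all genes called in PS+Dox against PS. Of 21 activators, trafficking factors and membrane regulators, 1 rose and 1 fell. The riser was PCSK5, a proprotein convertase that can remove the prodomain of metalloproteases, at 424, 450.7 and 259 in PS+Dox, against 158, 159 and 149 in PS and 329.7, 352 and 279 in untreated cells. The PS arrays were below both other groups, and PCSK5 rose by 1.14 ± 0.17 in PS+Dox against PS (adjusted p = 0.00105). The faller was SPOCK1, a testican proteoglycan, at -0.60 ± 0.10 (adjusted p = 0.00193). FURIN, the best known convertase, was 1.18 ± 0.09 higher in PS than in untreated cells (adjusted p = 4.93e-06) and differed by 0.04 ± 0.09 between PS+Dox and PS (adjusted p = 0.847). TSPAN15, a tetraspanin partner of ADAM10, differed by -1.49 ± 0.21 between PS and untreated cells (adjusted p = 0.000344). In that comparison 4 genes of the list rose and 6 fell, where 29.8% of all genes were called.

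Of 9 measured genes of the plasminogen system, which activates MMPs through plasmin, 0 were higher and 3 lower in PS+Dox against PS by limma (0 higher at an unadjusted p under 0.05). SERPINE2, an inhibitor of plasminogen activators, read 2655, 2847 and 3462 in PS+Dox, against 9419, 7390.3 and 10643 in PS and 1356, 1526 and 1351 in untreated cells. No groups overlapped, and SERPINE2 fell by 1.57 ± 0.13 in PS+Dox against PS (adjusted p = 1.82e-05) and was 2.63 ± 0.13 higher in PS than in untreated cells (adjusted p = 1.53e-07). PLAU, the urokinase activator itself, read 251, 277 and 271 in PS+Dox, against 473, 507 and 597 in PS and 501, 507 and 481 in untreated cells. It fell by 0.93 ± 0.09 in PS+Dox against PS (adjusted p = 5.4e-05). KLKB1, the precursor of plasma kallikrein, fell by 1.55 ± 0.12 in PS+Dox against PS (adjusted p = 1.48e-05). In PS against untreated cells 1 gene of the list, SERPINE2, rose and 3 fell, led by PLAT, the tissue-type activator, at -1.26 ± 0.25 (adjusted p = 0.00326).

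Of 12 astacins and pappalysins with their enhancers and inhibitors, 2 rose and 3 fell in PS+Dox against PS. STC2, an inhibitor of pappalysins, differed by -0.46 ± 0.11 (adjusted p = 0.0144), and PCOLCE2, an enhancer of procollagen C-proteinase, by -0.39 ± 0.09 (adjusted p = 0.0106). STC1, a relative of STC2, was at -1.17 ± 0.31 (adjusted p = 0.0231), a call lost without the first or the second PS+Dox array or the first or the third PS array (adjusted p up to 0.0719). In PS against untreated cells 0 of the 12 were higher and 4 lower by limma, with 0 higher at an unadjusted p under 0.05. STC2 led these falls at -0.73 ± 0.11 (adjusted p = 0.000529), followed by TLL2, a tolloid-like astacin, at -0.66 ± 0.10 (adjusted p = 0.00048).

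Of 24 measured membrane proteins known to be shed by ADAM10 or ADAM17, 5 rose and 3 fell in PS+Dox against PS. L1CAM, a cell adhesion molecule, read 257, 327 and 297 in PS+Dox, against 778, 889.5 and 1272 in PS and 423, 477 and 426 in untreated cells. It fell by 1.66 ± 0.16 in PS+Dox against PS (adjusted p = 4.37e-05). EFNB2, an ephrin ligand, read 685, 763 and 834 in PS+Dox, against 329, 404 and 281 in PS and 284, 315 and 283 in untreated cells. The PS+Dox arrays were above all others, and EFNB2 rose by 1.13 ± 0.13 against PS (adjusted p = 0.000159). ERBB4, a neuregulin receptor, rose by 1.09 ± 0.12 in PS+Dox against PS (adjusted p = 0.000144). N-cadherin, CDH2, was 1.42 ± 0.11 higher in PS than in untreated cells (adjusted p = 4.2e-06), the largest of 2 rises and 6 falls called in the list in that comparison.

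Of 26 matrix substrates, 4 rose and 6 fell in PS+Dox against PS. COL5A1, a fibril-forming collagen chain, read 472, 527 and 414 in PS+Dox, against 1295, 1452 and 1879.7 in PS and 199.6, 237 and 201 in untreated cells, and fell by 1.66 ± 0.14 in PS+Dox against PS (adjusted p = 1.96e-05). NCAN, or neurocan, a proteoglycan of the hyalectan family, fell by 1.44 ± 0.13 (adjusted p = 2.71e-05). FN1, fibronectin, read 12504, 10928 and 12965 in PS+Dox, against 5493, 4672 and 5625 in PS and 1430.1, 1575 and 1448 in untreated cells. All groups were separate, and FN1 rose by 1.22 ± 0.08 in PS+Dox against PS (adjusted p = 5.72e-06). TNC, tenascin-C, was 3.82 ± 0.13 higher in PS than in untreated cells (adjusted p = 1.11e-08), where 9 genes of the list rose and 7 fell, and differed by -0.11 ± 0.13 between PS+Dox and PS (adjusted p = 0.643).

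**Figure D4:**
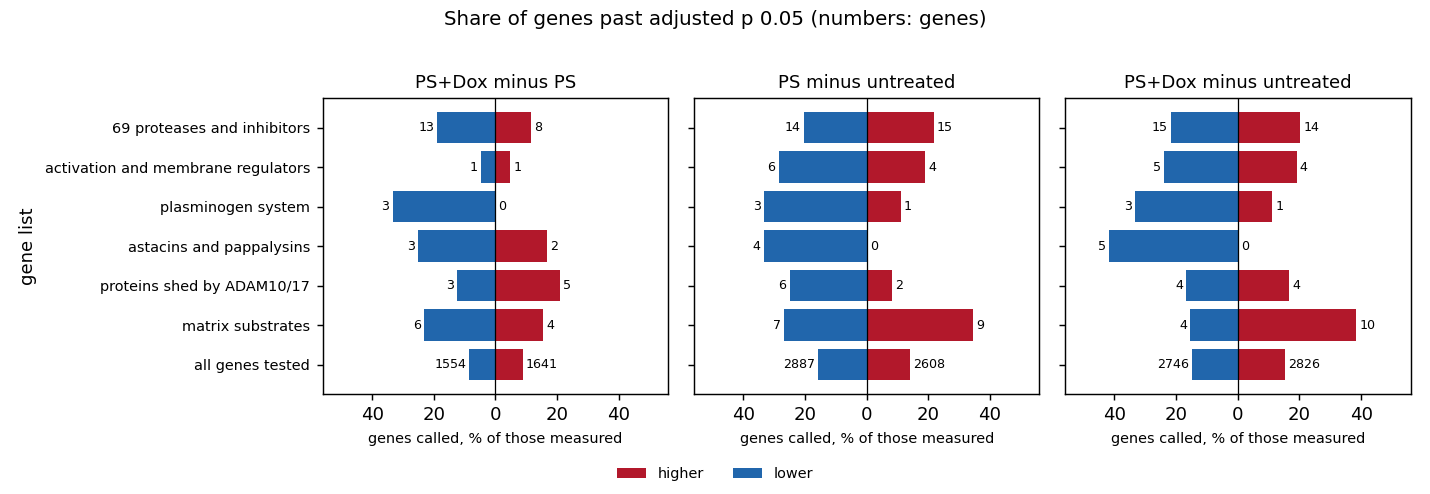
Share of measured genes called higher (to the right) and lower (to the left) in each list and comparison, as a percentage, with the number of genes at each bar. The member row holds 8 higher and 13 lower genes in PS+Dox against PS and 15 higher and 14 lower in PS against untreated, drawn beside the row of all genes tested.

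Some markers of the cells that could be present moved between the groups. Counts of markers stand beside 8.91% of all genes called higher and 8.44% lower in PS+Dox against PS. In PS against untreated cells these shares were 14.2% and 15.7%. The summed intensity of 9 pluripotency markers lay between 32653 and 34055 in PS+Dox, between 26762 and 29944 in PS and between 38217 and 40094 in untreated cells. Of these 9, 3 were higher and 1 lower in PS+Dox than in PS, the faller being L1TD1 at -1.05 (adjusted p = 2.85e-05). The highest difference of the list there was 2.18. In PS against untreated cells 0 were higher and 6 lower, with a lowest difference of -2.43. The sum of 8 primitive streak markers lay between 14616 and 23273 in PS+Dox, between 75805 and 85547 in PS and between 1661.7 and 1742 in untreated cells. In both PS groups EOMES made up most of it, at 9529 to 15554 in PS+Dox and 50981 to 57102 in PS. Taken singly, all 8 were lower in PS+Dox than in PS and higher in PS than in untreated cells. The sum of 9 amnion and trophectoderm markers lay between 28441 and 32533 in PS+Dox, between 15945 and 16553 in PS and between 1668.3 and 1896 in untreated cells, with 7 higher in PS+Dox than in PS and 0 lower. In PS against untreated cells 5 were higher and 2 lower. The fallers were KRT7 at -1.75 (adjusted p = 0.0029) and IGFBP3 at -0.69 (adjusted p = 0.00323). The fibroblast list of 10 lay between 3636.8 and 4489.7 in PS+Dox, between 3677.7 and 4005 in PS and between 6620.4 and 6768.3 in untreated cells, with 1 higher and 1 lower in PS+Dox than in PS, and 1 higher and 2 lower in PS than in untreated cells. Its riser in PS+Dox against PS was POSTN, or periostin, at 182, 178 and 785 in PS+Dox, against 63.3, 73.5 and 34.5 in PS and 40.8, 50.3 and 37.0 in untreated cells, highest on the PS+Dox array with the lowest TCF7L1. In PS against untreated cells, COL1A2 was 0.65 higher (adjusted p = 0.000919), its partner chain COL1A1 0.68 lower (adjusted p = 0.000962), and the lowest difference of the list was -1.70. THY1 fell by 0.69 in PS+Dox against PS (adjusted p = 0.00223). DCN (18.9 to 31.5) and LUM (32 to 54.9) were dim on all 9 arrays. The endothelium and blood list of 10 lay between 1561.6 and 1677.5 in PS+Dox, between 1883.6 and 2054.6 in PS and between 1889.6 and 2058.8 in untreated cells, with 0 higher and 1 lower, VWF, in PS+Dox than in PS by limma (0 higher and 4 lower at an unadjusted p under 0.05). In PS against untreated cells 1 of that list was higher and 1 lower. PTPRC read 19.2 to 25.5 over all arrays, while CDH5 read 626 to 662 in PS+Dox, 692 to 752 in PS and 682 to 745 in untreated cells. The part of a change in cell makeup in the differences of the proteases was not tested.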

How the data were processed

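RNA of 9 arrays in 3 labelled groups was compared. The authors deposited 1 linear intensity for each probe set, made with Affymetrix Expression Console 1.1.1 and PLIER 2.0, per the submitters' processing notes. How background and arrays were corrected is not given in the sources used here. Array medians spanned 0.10 log2, so log2(value + 16) was quantile-normalized, which compresses the brightest genes. Each gene was represented by its brightest probe set over all arrays, leaving 18417 genes. A group-means model over the 9 arrays (6 residual degrees of freedom) was fitted in limma 3.58.1 under R 4.3.3 with a variance trend, and p-values were Benjamini-Hochberg adjusted over all genes at 0.05. The number of arrays, 3 per group, limits the precision.

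The members and lists were chosen with earlier results of these data known. Named members were a fixed set (ADAM10, ADAM17, MMP2, MMP9, MMP14 and the TIMPs), in each comparison the 10 largest rises and 10 largest falls called with separate arrays, and the 3 largest called changes of each related list. A few others were named after their values were seen: ADAM2, ADAM12, ADAM18, ADAM28, ADAM32, ADAMTS2, ADAMTS14, MMP11, MMP19 and the dim MMPs of chromosome 11. A member named in 1 comparison was often, but not always, followed through the others. Of the related lists, ALCAM, MET, PCOLCE, RELN and TSPAN5 were among these largest changes and are not described. Same-numbered arrays deviated together between PS+Dox and PS (r of 0.245, 0.428 and 0.246) and between PS+Dox and untreated (0.246, 0.309 and 0.297). The numbers may therefore pair, which is read from the data and not the labels. Between PS and untreated the same-numbered arrays gave 0.0857, 0.397 and 0.271. There the pairing was less clear, as the first PS array gave 0.0486 with the third untreated array. The procedure was run on simulated data with independent arrays and few changed genes, a setting that does not cover arrays that deviate together. Alternatives covered normalization, log offset, probe set choice, a filter on dim genes, the variance model, the replicate block and each array left out.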

Additional observations from a re-analysis of the deposited data

How the results depend on the processing

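Over 19 alternatives, 18 of the 21 members called in PS+Dox against PS, 26 of the 29 in PS against untreated and 20 of the 29 in PS+Dox against untreated were called in every alternative that tested them. Of the called members, the filter on the dimmest genes removed ADAM12, ADAM28, ADAMTS6 and ADAMTSL5 from the test, which the count passes over. In PS+Dox against PS, TIMP2, MMP17 and MMP25 lost their call in an alternative that tested them. Leaving out 1 array gave 7 to 8 higher and 11 to 13 lower members in PS+Dox against PS, 12 to 15 higher and 14 to 14 lower in PS against untreated, and 9 to 16 higher and 11 to 15 lower in PS+Dox against untreated. Over all genes, the same fits gave 1222 to 1660 higher and 1129 to 1461 lower in PS+Dox against PS. In PS against untreated they gave 1865 to 2677 higher and 2259 to 2955 lower. In PS+Dox against untreated they gave 2004 to 3068 higher and 2163 to 2960 lower. The 9 higher members in PS+Dox against untreated arose without the first PS+Dox array and without the first untreated array, against 14 with all arrays. Those fits called 2421 and 2004 of all genes higher, against 2826 with all arrays. Without the third PS+Dox array, which had the lowest TCF7L1, 7 members were higher and 11 lower in PS+Dox against PS, beside 1548 and 1390 of all genes. MMP9 in PS+Dox against untreated lay between -0.19 and 0.006 over these fits, against -0.10 with all arrays, and the 0.006 (adjusted p = 0.978) arose without that same array; the cause was not tested. With the replicate number as a block, 8 members were higher and 15 lower in PS+Dox against PS, and 17 higher and 15 lower in PS+Dox against untreated. Calls over all genes grew too. They went from 1641 higher and 1554 lower to 2341 and 2140 in the first comparison. In the second they went from 2826 higher and 2746 lower to 3571 and 3484. Among the members, the block removed no call and added ADAMTS6 and TIMP4 in the first, and ADAM10, ADAM17 and TIMP1 in the second. In PS against untreated, where the pairing of numbers was less clear, the block gave 15 higher and 16 lower members, adding ADAM33 and TIMP4. Over all genes it gave 3269 higher and 3666 lower there, against 2608 and 2887 without the block. Dim members, such as the collagenases, limit what could be detected.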

Other observations

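A probe set annotated with both MMP23A and MMP23B, near-identical genes for a membrane-bound MMP, lay outside the members. It read 339.5, 319 and 359 in PS+Dox, 319, 286 and 352 in PS, and 299.6, 319 and 365 in untreated cells, so all groups overlapped. TATAAA, searched on the given strand only, was in 8 of the 42 member promoters and in 7.71% of all promoters. None of those 8 members was called in PS+Dox against PS or in PS against untreated. Of all 42, 31 and 26 were not called in these comparisons. Among the 8, ADAM21, MMP7, MMP8, MMP10, MMP20 and MMP26 were dim, with all group means below 100, so no link between TATAAA and change is read.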
